A study of Mus musculus with 8 samples.

Results

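In 73 genes, libraries with and without a Bmpr1a deletion differed one way in hair follicle stem cells and the other way in their dividing progeny. The genes were chosen by their values in these libraries: of 22354 symbols listed in both tables, 11261 averaged at least 1 FPKM (fragments per kilobase of transcript, scaled to the library) in each table, and 180 of those differed at least 2-fold between genotypes in both. The sign was the same for 98 and opposite for 82, of which 9 hair keratin, keratin-associated and similarly named genes were left out. Of the 73, 38 were higher in deleted stem cells and lower in deleted progeny, and 35 were lower in deleted stem cells and higher in deleted progeny. Fold changes throughout are differences of log2(FPKM + 1), a scale that understates the change of low genes.

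The study measured RNA of the mouse hair follicle in 8 libraries. One kind of cell was the bulge stem cell (HFSC), from K15-CrePGR mice, in which a progesterone receptor-linked Cre is driven by the keratin 15 promoter. HFSCs were taken on postnatal day 68, with 1 library heterozygous for the Bmpr1a deletion (Het) and 1 with the conditional deletion of both floxed alleles (cKO). Dividing transit-amplifying cells (TACs) were taken on day 68 from Shh-CreER mice, whose Cre is expressed from Shh and acts after tamoxifen, as 1 Het library and 1 cKO library. The last group was TACs derived from K15-CrePGR stem cells, collected from hair bulbs at day 80, with WT 52 and WT 57 as controls and KO 64 and KO 84 as the deleted samples. All mice were of mixed strain, and the labels state neither sex nor pooling, nor that the samples came from separate animals. The rule used the HFSC and Shh-CreER values, so those are given as a description with no test, while the K15-CrePGR TAC libraries took no part in the choice and carry the tests.

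Bone morphogenetic proteins (BMPs) bind paired type I and type II receptors, and Bmpr1a is the main type I receptor of the follicle epithelium. In the bulge, BMP signalling is known for holding stem cells in quiescence. In the matrix of the bulb, it is known for driving the progeny of those cells to form the hair shaft. The receptor passes the signal to Smad proteins, which bind DNA at short motifs such as the SMAD box.

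Some values of the whole series bear on the 73 genes. Bmpr1a was listed at 31.8 FPKM (Het) and 39.3 FPKM (cKO) in HFSCs, at 46.0 and 40.4 FPKM in Shh-CreER TACs, and between 37.1 and 42.2 FPKM in K15-CrePGR TACs, so the level of the whole transcript did not separate the genotypes. Estimated from the steps in low values, depth was 55.4 M and 47.5 M reads in Het and cKO HFSCs and 28.6 M and 28.7 M reads in Shh-CreER TACs. Bulge markers summed to 9763 and 4125 FPKM in Het and cKO HFSCs, against 189 and 279 FPKM in Shh-CreER TACs. Most of that was Krt15 (7834 and 3075 FPKM), and of the 15 bulge genes 5 were at least 2-fold lower and 2 higher in cKO HFSCs, with a median of -0.08. Hair shaft and matrix genes without keratins summed to 188 and 156 FPKM in HFSCs against 2258 and 1026 FPKM in those TACs. In HFSCs, Xist was at 68.9 FPKM (Het) and 3.98 FPKM (cKO), and Ddx3y, on the Y chromosome, at 0.255 and 23.2 FPKM, so that sex and genotype cannot be told apart in the HFSC pair. Among K15-CrePGR TACs, WT 52 had the highest Ddx3y (26.4 FPKM), and KO 64 stood apart by its markers of other cells. In KO 64, fibroblast genes summed to 2034 FPKM against 499 to 697 FPKM in the other K15-CrePGR libraries, and immune genes to 1679 FPKM against 48.0 to 291 FPKM. In bulk samples, fewer cells of a type and less RNA per cell cannot be told apart.

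Promoters of 4 genes are printed because results below turn on them: Dct leads the first direction, Acot7 and Gpr153 are neighbours in it, and Far2 stands for the lipid enzymes of the second. Each is the RefSeq window of GRCm38.p6 from 250 bases before to 50 bases after the start, 5′ to 3′ on the gene's strand. Capitals mark matches, on either strand, to the letters searched. The coordinates are chr14:118052197-118052496 on the minus strand for Dct, and on the plus strand chr4:152185358-152185657 for Acot7, chr4:152273862-152274161 for Gpr153 and chr6:148047166-148047465 for Far2.
Dct: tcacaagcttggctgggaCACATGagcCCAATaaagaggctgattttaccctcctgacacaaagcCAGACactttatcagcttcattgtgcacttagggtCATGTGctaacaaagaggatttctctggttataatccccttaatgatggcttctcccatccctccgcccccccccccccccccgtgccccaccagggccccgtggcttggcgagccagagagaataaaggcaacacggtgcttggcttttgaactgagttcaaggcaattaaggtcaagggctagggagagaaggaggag
Acot7: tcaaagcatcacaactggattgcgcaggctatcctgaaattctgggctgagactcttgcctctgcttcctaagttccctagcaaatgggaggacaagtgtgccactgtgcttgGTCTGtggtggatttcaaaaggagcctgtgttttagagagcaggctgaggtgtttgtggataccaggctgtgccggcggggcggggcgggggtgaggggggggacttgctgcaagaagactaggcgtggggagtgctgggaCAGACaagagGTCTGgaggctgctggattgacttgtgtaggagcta
Gpr153: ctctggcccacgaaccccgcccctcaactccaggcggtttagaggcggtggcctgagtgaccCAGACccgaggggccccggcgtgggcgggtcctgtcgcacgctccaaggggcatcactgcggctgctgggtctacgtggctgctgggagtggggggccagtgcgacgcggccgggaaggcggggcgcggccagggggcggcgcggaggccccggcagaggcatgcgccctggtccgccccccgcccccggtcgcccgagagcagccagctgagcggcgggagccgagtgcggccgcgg
Far2: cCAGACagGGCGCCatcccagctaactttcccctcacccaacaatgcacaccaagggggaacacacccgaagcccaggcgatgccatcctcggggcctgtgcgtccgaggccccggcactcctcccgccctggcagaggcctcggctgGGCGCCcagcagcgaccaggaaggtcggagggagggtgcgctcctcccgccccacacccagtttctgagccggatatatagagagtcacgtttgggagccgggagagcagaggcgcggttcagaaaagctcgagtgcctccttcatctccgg
The Dct window holds the E-box CATGTG, of the type bound by the pigment cell factor MITF, on both strands, along with CCAAT and CAGAC (the SMAD box). The Acot7 window holds CAGAC 3 times and the Gpr153 window holds it 1 time. The Far2 window holds the GC-rich SMAD motif GGCGCC, which reads alike on both strands, at 2 places.

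The promoter table held 27 of the 38 genes of the first direction (33 windows) and 23 of the 35 of the second (29 windows). CAGAC was in 66.7% of windows of the first direction and 62.1% of the second, against 49.6% of 32851 windows over all genes. GGCGCC was in 27.3% and 13.8%, against 11.9%, and TATAAA in 18.2% and 3.45%, against 13.6%. CTTTGAA, the LEF/TCF motif, was in 9.09% of the first and 0 of the second, against 5.14%, CATGTG in 12.1% and 6.90%, against 14.2%, and CCAAT in 36.4% and 24.1%, against 37.4%. Median GC content was 58.0% and 57.3%, against 52.7%, and its part in these shares was not tested. A match is a description and not a binding site.

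The first direction comprised the genes higher in cKO HFSCs and lower in cKO Shh-CreER TACs. The median level of the 38 was 2.57 FPKM in Het against 12.6 FPKM in cKO HFSCs, and 17.5 FPKM in Het against 5.10 FPKM in cKO TACs. Their differences ran from 1.01 to 4.61 in HFSCs (median 1.48) and from -3.27 to -1.004 in Shh-CreER TACs (median -1.35). Over all 11261 genes, 5.69% were at least 2-fold higher in cKO HFSCs and 1.94% at least 2-fold lower in cKO Shh-CreER TACs, which the rule used and from which nothing is read.

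**Figure D1:**
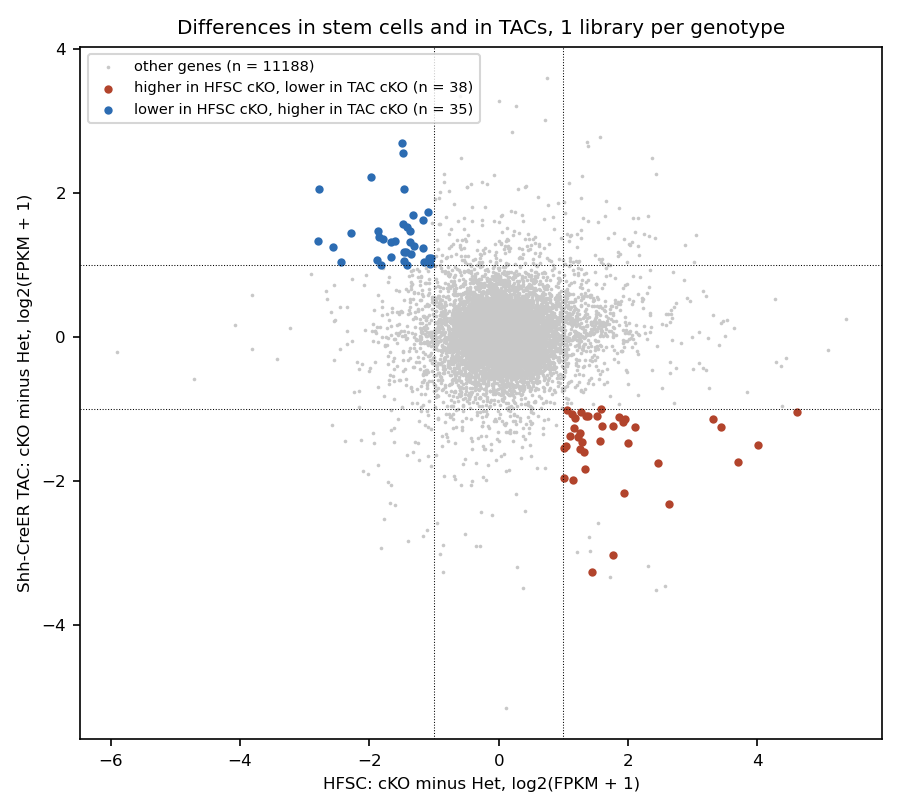
Difference between genotypes (cKO minus Het, log2(FPKM + 1)) in HFSCs on the x axis and Shh-CreER TACs on the y axis, 1 point per gene, 1 library per genotype. Dotted lines mark the difference of 1 on which the rule rests; the 38 red genes lie to the lower right and the 35 blue genes to the upper left, and unmarked points in those 2 corners are the 9 keratin-named genes left out.

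Dct, the dopachrome tautomerase of melanin synthesis, was the gene with the largest smaller-of-the-pair difference among the 38. In HFSCs it was at 2.59 FPKM (Het) and 21.2 FPKM (cKO; a difference of 2.63), and at 82.9 and 15.8 FPKM in Het and cKO Shh-CreER TACs (-2.32). Of the other pigment cell genes, Tyrp1 (0.483 and 5.03 FPKM), Pmel (1.62 and 8.24 FPKM) and Mlana (0.271 and 2.13 FPKM) had the same order in HFSCs. Of the melanocyte list, 6 of 14 listed genes averaged at least 1 FPKM in HFSCs, 4 of them at least 2-fold higher and 1 lower. In Shh-CreER TACs 9 reached that mean, and Dct was the 1 gene of those at least 2-fold lower. Its other 13 genes summed to 62.7 and 58.4 FPKM in Het and cKO HFSCs, and to 92.9 and 105 FPKM in Shh-CreER TACs, with 1 gene (Oca2) at 0 in Het HFSCs. Mitf, the pigment cell regulator, went the other way in HFSCs, at 26.2 and 6.06 FPKM (Het and cKO), and with Rab38, at 33.0 and 33.4 FPKM, it held most of the Het sum. The part of pigment cells in the difference of Dct was not tested.

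Kitl, the Kit ligand that supports pigment cells, was at 6.45 and 16.8 FPKM in Het and cKO HFSCs and at 87.4 and 29.1 FPKM in Shh-CreER TACs. Its receptor Kit was at 0.294 and 0.653 FPKM in HFSCs and at 35.2 and 44.2 FPKM in TACs, so ligand and receptor did not move alike there. Npy, the secreted neuropeptide Y, was listed at 0 in Het and at 2.82 FPKM in cKO HFSCs, and at 7.36 and 0.852 FPKM in TACs.

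Transcription regulators and chromatin genes formed the next group. Hoxc13, the homeobox factor of the hair shaft, was at 9.95 FPKM (Het) and 28.7 FPKM (cKO) in HFSCs (1.44), and at 152 and 14.9 FPKM in Het and cKO Shh-CreER TACs (-3.27), the most negative TAC difference of the 38. Bnc1 (basonuclin, a zinc finger protein of basal keratinocytes) was at 21.7 and 57.05 FPKM in HFSCs and at 29.8 and 13.3 FPKM in TACs. Dach1, a transcriptional cofactor, was at 3.34 and 9.12 FPKM in HFSCs and at 26.7 and 9.55 FPKM in TACs. Hoxc13 therefore differed most in TACs, while Bnc1 and Dach1 differed by similar sizes in both. Nfe2l3, a bZIP factor, was at 8.68 and 19.8 FPKM and at 59.8 and 22.5 FPKM.

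The histone genes Hist1h2bk, Hist1h2bc and Hist2h3b shared this direction. Hist1h2bc was at 24.6 and 86.1 FPKM in Het and cKO HFSCs and at 258 and 109 FPKM in Shh-CreER TACs. Hist2h3b was at 2.55 and 11.9 FPKM and at 8.23 and 3.28 FPKM. Reads of near-identical histone copies could have been split between genes, so these values are uncertain. Proliferation genes, a list with no histone gene on it, were higher in cKO HFSCs (10 of 10 at least 2-fold, summing to 68.6 and 261 FPKM) and summed to 979 and 1094 FPKM in Het and cKO TACs, with 0 of 10 at least 2-fold apart.

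Hair shaft and matrix genes other than keratins gave 2 members, Hoxc13 and Vsig8, an immunoglobulin-domain protein of the shaft. Vsig8 was at 1.67 and 4.40 FPKM in Het and cKO HFSCs and at 13.2 and 2.63 FPKM in Shh-CreER TACs. Of the list's 22 genes, 15 were at least 2-fold lower and 0 higher in cKO TACs. In HFSCs, 16 averaged at least 1 FPKM, of which 2 were at least 2-fold higher and 4 lower. The 2 higher genes were Hoxc13 and Vsig8, whose order the rule fixed, and the 15 lower in cKO TACs include them too. The lower level in cKO TACs was thus shared by most of the list. The exceptions were Shh (111 and 199 FPKM in Het and cKO TACs), Tchh (196 and 313), Gata3 (51.6 and 81.1) and Padi1 (2.25 and 3.66). In HFSCs the median difference of the list was -0.22. Hair keratins were among the 9 genes that met the thresholds of the rule but were left out by name. Their opposite signs were thus fixed by the choice: Krt35, for example, differed by 2.44 in HFSCs and by -3.52 in TACs, and Krt85 by 2.57 and -3.47. Hair keratins that did not meet the thresholds are not described here.

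Genes of the actin cytoskeleton, membrane transport and junctions had some of the widest spans. Fscn1 (fascin, which bundles actin) was at 2.13 FPKM (Het) and 49.5 FPKM (cKO) in HFSCs (4.01), and at 31.3 and 10.4 FPKM in Shh-CreER TACs (-1.50). Slc7a8, a subunit of an amino acid transporter, was at 3.76 and 60.8 FPKM in HFSCs (3.70) and at 55.1 and 15.8 FPKM in TACs (-1.74). Gjb2, the gap junction protein connexin 26, was at 4.46 and 132 FPKM in HFSCs (4.61, the widest of the 38) and at 205 and 98.8 FPKM in TACs (-1.05). For these 3 genes the HFSC difference was more than 2 times the size of the TAC difference. Cldn10, a tight junction claudin, was at 0.867 and 4.65 FPKM in HFSCs and at 244 and 103 FPKM in TACs. Fhod3, an actin-assembling formin, was at 0.470 and 7.10 FPKM and at 18.1 and 4.66 FPKM. Smooth muscle genes, a list with which Fscn1 has no member in common, summed to 12.8 and 98.1 FPKM in Het and cKO HFSCs and to 57.5 and 33.8 FPKM in TACs, the same order of genotypes as Fscn1 and Fhod3. Skeletal muscle genes summed to 5.12 and 5.52 FPKM in Het and cKO HFSCs and to 198 and 39.5 FPKM in Het and cKO TACs. In TACs, 9 of the 10 skeletal muscle genes that averaged at least 1 FPKM were at least 2-fold lower in cKO. The part of muscle cells in these differences was not tested.

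Enzymes and carriers of lipid and carbon dioxide metabolism were found here too. Car2, a carbonic anhydrase, was at 0.151 FPKM (Het) and 2.93 FPKM (cKO) in HFSCs (1.77) and at 25.9 and 2.28 FPKM in Het and cKO Shh-CreER TACs (-3.04). Acot7, an acyl-CoA thioesterase, was at 10.7 and 25.4 FPKM in HFSCs and at 91.0 and 37.3 FPKM in TACs. Slc27a6, a fatty acid transport protein, was at 4.13 and 11.3 FPKM and at 6.54 and 1.99 FPKM. Pm20d1, which makes N-acyl amino acids, was at 3.64 and 12.8 FPKM and at 12.6 and 3.99 FPKM. Ptpla (now Hacd1, a dehydratase of fatty acid elongation) was at 3.58 and 16.4 FPKM and at 3.22 and 0.857 FPKM.

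Signalling and secretory genes completed the named members. Pmepa1, which restrains TGF-beta signalling by binding Smads, was at 2.94 and 14.3 FPKM in Het and cKO HFSCs and at 10.9 and 4.39 FPKM in Shh-CreER TACs. Gpr153, an orphan receptor, was at 2.13 and 12.4 FPKM and at 13.8 and 5.21 FPKM. 2310033E01Rik (now Pinlyp, a predicted phospholipase inhibitor) was at 4.39 and 57.1 FPKM (3.43) and at 29.3 and 11.7 FPKM (-1.25). D0H4S114 (now Nrep) was the most abundant of the 38 in Het HFSCs, at 42.9 FPKM against 96.7 FPKM in cKO, and was at 23.5 and 5.16 FPKM in TACs. S100a8, an alarmin of wounded epidermis and neutrophils, was at 0.526 and 2.85 FPKM and at 49.5 and 13.1 FPKM. The other 7 genes of the wound and stress list summed to 1127 and 1502 FPKM in Het and cKO HFSCs and to 129 and 85.2 FPKM in TACs, and immune genes to 349 and 133 FPKM and to 496 and 358 FPKM. Most of the wound and stress sum in HFSCs was Krt6a, at 607 and 931 FPKM. S100a9 was at 2.37 and 2.10 FPKM in Het and cKO HFSCs and at 62.4 and 20.4 FPKM in TACs. Of the 8 listed genes, S100a8 included, 2 were at least 2-fold higher and 1 lower in cKO HFSCs.

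The remaining genes of this direction were Fam20a, Ehd3, Hist1h2bk, Pcp4, Gcnt1, BC117090, BC100530, Fam49a, Lap3, 6330416G13Rik, AI118078, Ccdc68 and Ugt1a6a. Their levels in HFSCs ran from 0.191 FPKM (Fam20a, Het) to 72.0 FPKM (Lap3, cKO), and in Shh-CreER TACs from 0.535 FPKM (BC100530, cKO) to 342 FPKM (Lap3, Het). BC117090 and BC100530, which are stefin-like genes, and Ugt1a6a, a glucuronosyltransferase, have close copies and their values are uncertain. The members nearest the threshold were Ugt1a6a, Ccdc68 and AI118078, with smaller differences of 1.004, 1.01 and 1.01. Just outside it lay 1700007K13Rik, Expi and Tpm2, at 0.98, 0.96 and 0.93. By estimated reads, the lower value of 9 of the 38 rested on fewer than 30 reads (Npy, Car2, Fam20a, S100a8, Hist1h2bk, Ptpla, Pcp4, BC117090 and BC100530), and the higher value never did.

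**Figure D2:**
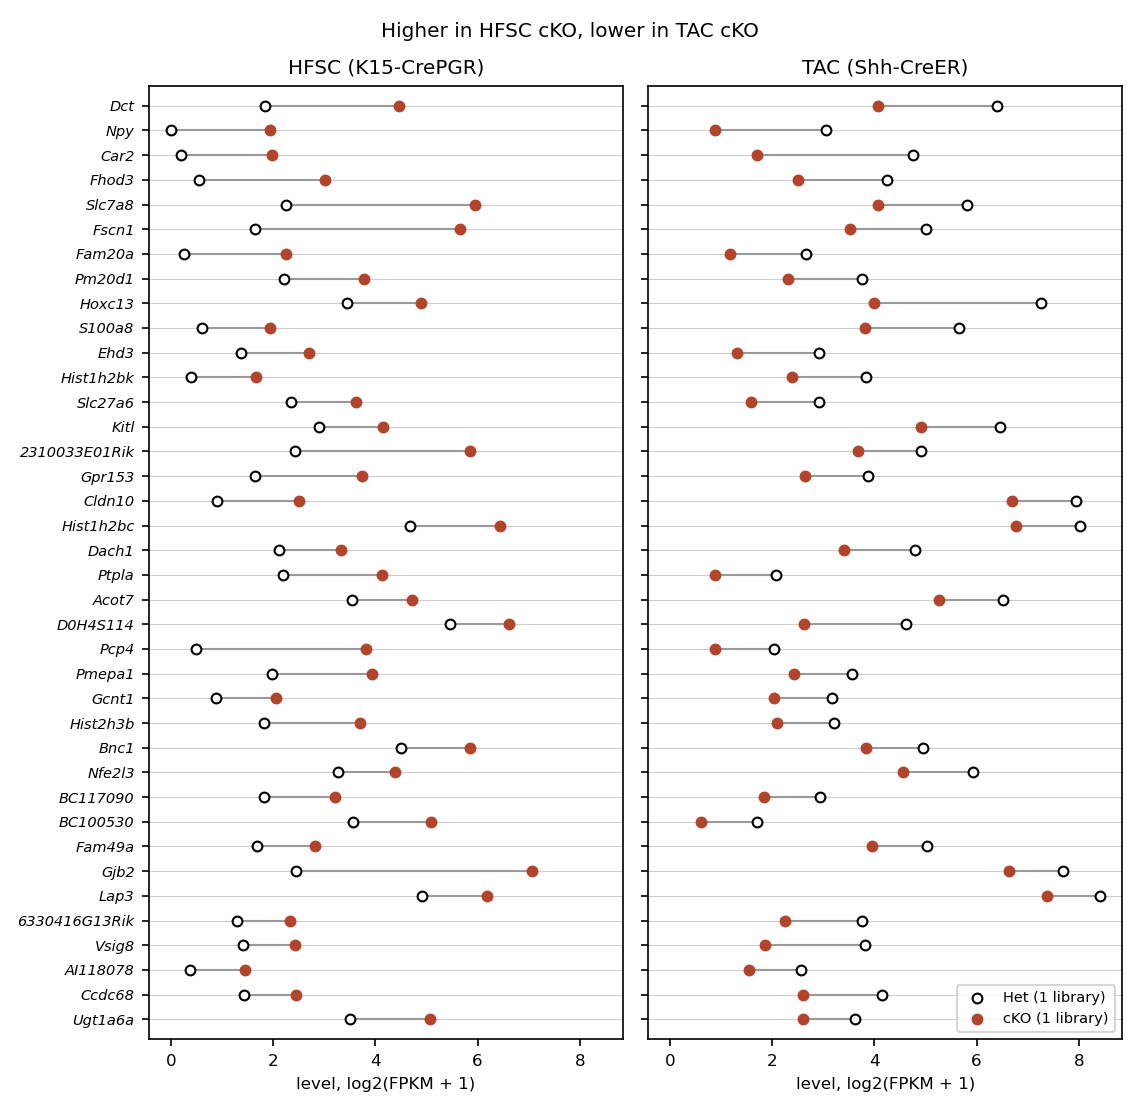
Level of each of the 38 genes (log2(FPKM + 1), x axis) in HFSCs on the left and Shh-CreER TACs on the right, open circles for the 1 Het library and red circles for the 1 cKO library. In HFSCs the red circle lies to the right and in TACs to the left for every gene, as the rule requires; Gjb2 spans 4.61 in HFSCs and Hoxc13 spans 3.27 in TACs.

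The second direction comprised the genes lower in cKO HFSCs and higher in cKO Shh-CreER TACs. The median level of these 35 was 20.2 FPKM in Het against 7.20 FPKM in cKO HFSCs, and 2.78 FPKM in Het against 10.7 FPKM in cKO Shh-CreER TACs. Their differences ran from -2.79 to -1.05 in HFSCs (median -1.47) and from 1.002 to 2.70 in TACs (median 1.32). Over all genes, 3.36% were at least 2-fold lower in cKO HFSCs and 2.26% at least 2-fold higher in cKO Shh-CreER TACs, again values that the rule used.

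Lipid enzymes of the sebaceous gland were the largest named group, with 7 of the 35 genes on a list of 18. Sebaceous glands adjoin the follicle above the bulge and secrete wax esters and other lipids. Scd1, the stearoyl-CoA desaturase and the most abundant of the 35, was at 272 FPKM (Het) and 98.5 FPKM (cKO) in HFSCs (-1.46) and at 121 and 252 FPKM in Het and cKO Shh-CreER TACs (1.05). Fa2h, a fatty acid hydroxylase, was at 64.3 and 18.0 FPKM in HFSCs and at 6.13 and 17.3 FPKM in TACs. Elovl3, which elongates fatty acids, was at 34.4 and 12.7 FPKM and at 9.41 and 27.9 FPKM. Scd1 thus had the smallest TAC difference of these 3 genes. Far2, the fatty acyl-CoA reductase whose promoter is printed above, was at 40.1 and 12.0 FPKM and at 7.82 and 21.0 FPKM. Cidea, a lipid droplet protein, was at 33.4 and 8.44 FPKM and at 4.05 and 13.0 FPKM. The wax synthase Awat1 was at 16.1 and 3.65 FPKM and at 1.26 and 3.73 FPKM. Scd3, a close copy of Scd1, was at 68.5 and 10.8 FPKM and at 0.400 and 2.34 FPKM, and its reads may be shared with its relatives.

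Counts over the whole sebaceous list include the 7 members, whose orders the rule fixed. In HFSCs 17 of its 18 genes averaged at least 1 FPKM, of which 11 were at least 2-fold lower and 0 higher in cKO. In Shh-CreER TACs 8 of 16 were at least 2-fold higher and 0 lower. All 7 members are among the 11 and among the 8, and Pparg was the only other gene of the 8. The 11 genes that are not members summed to 738 and 361 FPKM in Het and cKO HFSCs and to 627 and 783 FPKM in Het and cKO TACs, and 0 of them was at 0 in these 4 libraries. Most of their TAC sum was Mgst1, at 519 and 640 FPKM in Het and cKO Shh-CreER TACs. Pparg, the regulator of sebocyte and fat cell formation, was at 2.29 and 1.19 FPKM in HFSCs and at 1.45 and 12.7 FPKM in TACs, while Dgat2 was lower in both cKO libraries (105 and 33.3 FPKM, 11.4 and 5.86 FPKM). Of 5 adipocyte genes, 4 were under 1 FPKM in both TAC libraries and all were in HFSCs, while Fabp4 was at 298 and 193 FPKM in Het and cKO TACs. Genes of the isthmus and infundibulum, the follicle regions next to the gland, summed to 75.3 and 703 FPKM in Het and cKO Shh-CreER TACs and to 600 and 781 FPKM in HFSCs. Most of these sums was Krt79, at 68.1 and 638 FPKM in those TACs and 522 and 629 FPKM in HFSCs. Of the 4 listed genes, 3 averaged at least 1 FPKM in Shh-CreER TACs, and all 3 were at least 2-fold higher in cKO. The part of sebaceous and upper follicle cells in these differences was not tested.

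**Figure D3:**
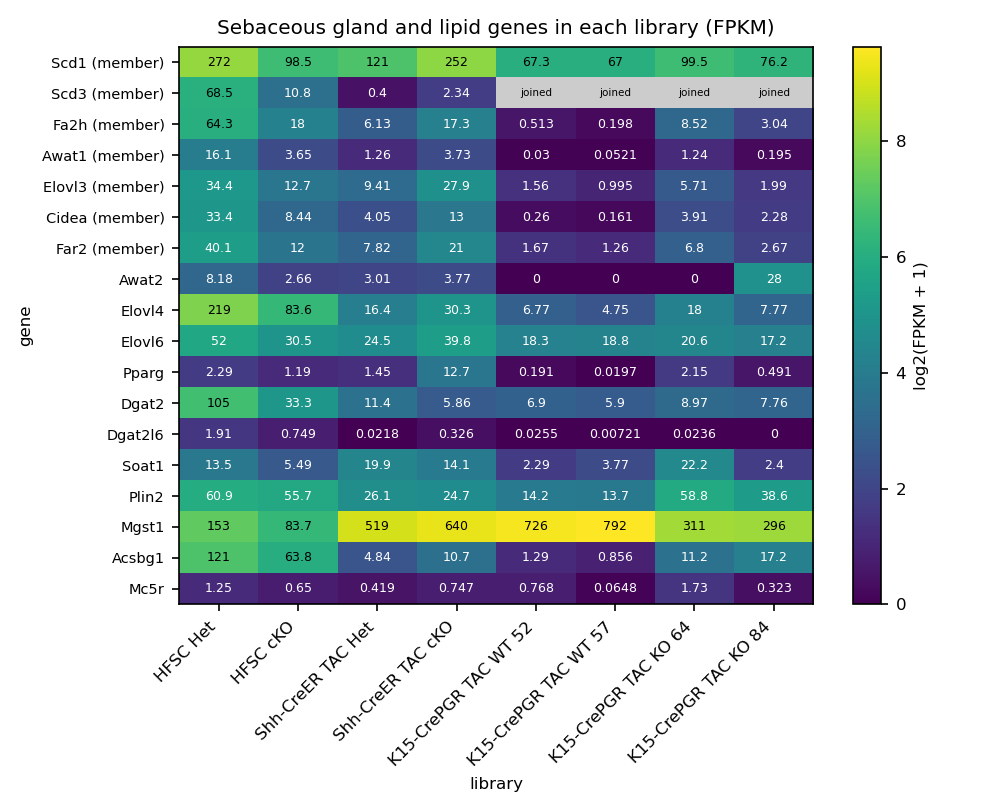
FPKM of the 18 sebaceous gland and lipid genes (rows) in the 8 libraries (columns), colour on a log2(FPKM + 1) scale; levels compare only within the HFSC, Shh-CreER and K15-CrePGR blocks. The 7 top rows are members. In K15-CrePGR TACs, Scd3 shares a locus with other genes and is marked joined, with no value. In those TACs, Fa2h is at 0.513 and 0.198 FPKM in WT and 8.52 and 3.04 FPKM in KO. Mgst1 is lower there in both KO libraries.

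Further enzymes of lipid, steroid and xenobiotic metabolism shared the direction. Ch25h, which hydroxylates cholesterol, was at 7.06 and 1.86 FPKM in Het and cKO HFSCs (-1.49) and at 2.78 and 23.5 FPKM in Shh-CreER TACs (2.70, the widest TAC difference of the 35). Abhd12b, a hydrolase, was at 20.1 and 6.55 FPKM and at 4.39 and 30.6 FPKM. The cytochrome Cyp2g1 was at 7.57 and 0.247 FPKM and at 0.496 and 5.20 FPKM, and the flavin monooxygenase Fmo2 at 4.27 and 0.881 FPKM and at 1.01 and 4.94 FPKM. Hpgds, a prostaglandin D synthase, was at 17.6 and 7.75 FPKM and at 7.66 and 27.7 FPKM. Ch25h, Abhd12b and Hpgds had larger differences in TACs than in HFSCs. The lipase Pnpla5, the retinol dehydrogenase Rdh9, Dhrs7 and Aadacl3 also had this pair of signs. Pnpla5 had the larger HFSC difference of those 4, at 12.5 and 1.48 FPKM (-2.44).

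Transcription factors and secreted signals were fewer. Tcfap2b (now Tfap2b, an AP-2 factor of the ectoderm) was at 60.1 and 26.2 FPKM in Het and cKO HFSCs and at 21.1 and 51.1 FPKM in Shh-CreER TACs. Fosl1, a Fos family member of AP-1, was at 54.2 and 18.9 FPKM and at 3.77 and 9.84 FPKM. Scube2, which releases lipid-modified hedgehog from cells, was at 12.6 and 4.05 FPKM and at 20.8 and 48.2 FPKM. Il34, a cytokine that maintains Langerhans cells, was at 41.0 and 15.3 FPKM and at 0.285 and 2.21 FPKM. Cd207, the Langerhans cell marker, was at 19.2 and 7.08 FPKM in Het and cKO HFSCs and at 0 and 0.0913 FPKM in TACs. Cd74, of antigen-presenting cells, was at 142 and 58.0 FPKM and at 66.8 and 80.6 FPKM. Of the 11 immune genes, 8 averaged at least 1 FPKM in HFSCs, and cKO was at least 2-fold lower for 5, while in TACs this held for 1 of 9. Ndrg1, a gene induced by hypoxia and differentiation, was at 115 and 45.7 FPKM and at 27.0 and 89.8 FPKM. The other 11 genes of the hypoxia and glycolysis list summed to 786 and 1307 FPKM in HFSCs and to 419 and 433 FPKM in TACs, which is not the order of Ndrg1 in HFSCs.

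Adhesion and cytoskeletal genes made up much of the remainder. Tjp3, a tight junction scaffold, was at 20.2 and 5.98 FPKM in Het and cKO HFSCs and at 7.11 and 19.3 FPKM in Shh-CreER TACs. Aif1l, an actin-binding protein, was at 15.2 and 1.34 FPKM (-2.79, the widest HFSC difference of the 35) and at 5.48 and 15.4 FPKM. Rab11fip4, which acts in membrane recycling, was at 16.2 and 5.24 FPKM and at 5.91 and 27.8 FPKM. Aif1l thus differed more in HFSCs and Rab11fip4 more in TACs. Of the cadherin Cdh13 and Dst, a hemidesmosome linker, Cdh13 was at 63.3 and 24.0 FPKM and at 1.81 and 5.26 FPKM, and Dst at 53.3 and 25.1 FPKM and at 1.71 and 4.45 FPKM. Serpinb10-ps, a serpin gene, was at 67.3 and 16.3 FPKM and at 2.57 and 15.6 FPKM. Also in this direction were Pvrl3 (nectin-3), Papln, Espn, Tmem45b, Als2cl, Peli2, Fcho1 and Ccdc88c, with levels from 0.708 FPKM (Espn) to 38.8 FPKM (Papln) in HFSCs and from 1.21 FPKM (Papln) to 12.5 FPKM (Peli2) in TACs.

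The members nearest the threshold were Ccdc88c, Fcho1 and Dst, with smaller differences of 1.002, 1.004 and 1.01. Just outside it lay Aqp9, Ccl27a and Spry1, at 0.98 each. By estimated reads, the lower value of 3 of the 35 rested on fewer than 30 reads (Cyp2g1, Aadacl3 and Il34). Epidermal cornification genes, of which 0 is a member, summed to 4300 and 1957 FPKM in Het and cKO HFSCs and to 377 and 361 FPKM in TACs.

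**Figure D4:**
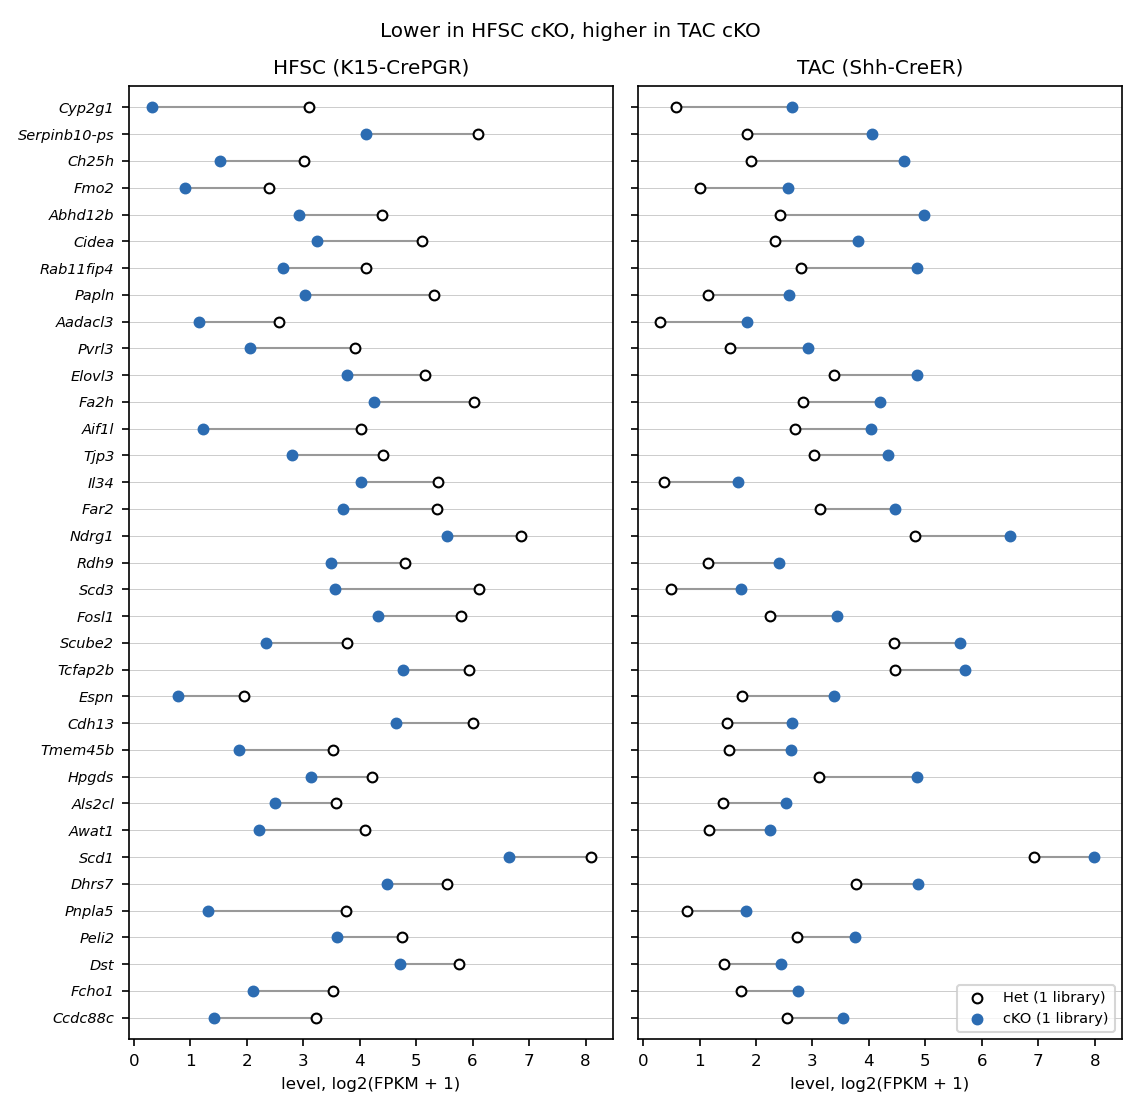
Level of each of the 35 genes (log2(FPKM + 1), x axis) in HFSCs on the left and Shh-CreER TACs on the right, open circles for the 1 Het library and blue circles for the 1 cKO library. The blue circle lies to the left in HFSCs and to the right in TACs for every gene, as the rule requires; Scd1 is the most abundant, at 272 and 98.5 FPKM in HFSCs and 121 and 252 FPKM in TACs.

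Levels in stem cells and TACs were set side by side as a description only. The tables were normalized separately, and the rule itself shifts the gap between HFSCs and TACs by at least 2 (log2) in every gene, so what follows largely restates the choice. In Het libraries, 35 of the 38 genes of the first direction were lower in HFSCs than in TACs, with a median gap of -2.57 (HFSC minus TAC, log2). In cKO libraries 26 of the 38 were higher in HFSCs, with a median gap of 0.74, and the gap was smaller in size for 29. Among the 35 genes of the second direction, 34 were higher in HFSCs in Het (median gap 2.06), 26 were lower in HFSCs in cKO (median gap -0.76), and 24 had the smaller gap in cKO. The signs of the median gaps in cKO were thus the reverse of those in Het. By rank within a library among 20024 genes listed in all 3 tables, the 34 rankable genes of the first direction had a median percentile of 51.5 in Het and 70.5 in cKO HFSCs, 79.5 and 56.9 in Het and cKO Shh-CreER TACs, and 67.1 to 72.4 in the K15-CrePGR TAC libraries. For 29 genes of the second direction these were 77.6 and 59.5, 55.1 and 68.3, and 48.9 to 54.2.

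In K15-CrePGR TACs, which the rule did not use, the second direction mostly kept the order of the Shh-CreER TACs and the first was mixed. Of the 35 genes of the second direction, 30 had a locus of their own in that table, and both KO values lay above both WT values for 21 (70.0%) and below for 4 (13.3%), against 27.5% and 20.4% of all 22335 named loci above 0. Their median difference was 0.84 over all 30. Of the 38 genes of the first direction, 34 had their own locus, and KO lay above WT for 12 (35.3%), below for 14 (41.2%) and overlapped for 8, with a median of -0.09. Over the 13565 loci that averaged at least 1 FPKM the shares above and below were 26.8% and 27.5%, and the median was -0.03. For the first direction, the order of the Shh-CreER TACs was thus kept for 14 genes and reversed for 12, both above the shares of all loci. Without KO 64 it was kept for 20 (58.8%) and reversed for 13 (38.2%), against 31.9% and 43.3% of loci.

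None of the members passed the test. In limma with Benjamini-Hochberg adjustment over 13565 loci, 0 of 33 tested genes of the first direction and 0 of 24 of the second had an adjusted p under 0.05, where 0.0369% of all loci were called higher and 0.0295% lower. At an unadjusted limma p under 0.05, 6 of the 33 were higher and 7 lower, and 9 of the 24 were higher and 2 lower. Over all loci 2358 (17.4%) had such a p, with both directions counted together. Below the mean of 1 FPKM were 1 gene of the first direction and 6 of the second, and 2 genes (Npy and Ehd3) and 6 genes (Fa2h, Cidea, Papln, Cdh13, Hpgds and Als2cl) had passed only because of their KO values, so these counts of tested genes support nothing. With 2 samples against 2, the test separates only wide differences.

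Other genes that differed in Shh-CreER TACs put these counts in context. Of 164 other genes at least 2-fold lower in cKO Shh-CreER TACs that had a locus of their own, KO lay below WT for 88 (53.7%) and above for 19 (11.6%), with a median of -0.44. Of 207 other genes at least 2-fold higher there, KO lay above WT for 165 (79.7%) and below for 6 (2.90%), with a median of 1.003. The difference of the 38 and 35 genes from these was not tested.

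KO 64 had the higher value of the KO pair for 24 of 34 genes of the first direction and 25 of 30 of the second, against 50.04% of all loci. Without KO 64, KO lay above both WT values for 13 and below for 20 of the 34, and above for 22 and below for 6 of the 30, against 43.3% and 31.9% of loci, and the medians were -0.25 and 0.43. Without KO 84 the medians were 0.09 and 1.20. Markers of other follicle cells differed in both KO libraries: genes of the isthmus and infundibulum summed to 29.1 and 24.8 FPKM in WT and to 258 and 827 FPKM in KO 64 and KO 84, bulge genes to 179 and 232 FPKM and to 610 and 697 FPKM, and smooth muscle genes to 24.8 and 22.2 FPKM and to 141 and 80.03 FPKM. Most of the isthmus and infundibulum sums was Krt79, at 19.1 and 14.7 FPKM in WT and at 189 and 768 FPKM in KO 64 and KO 84. The part of other cell types in the counts was not tested.

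**Figure D5:**
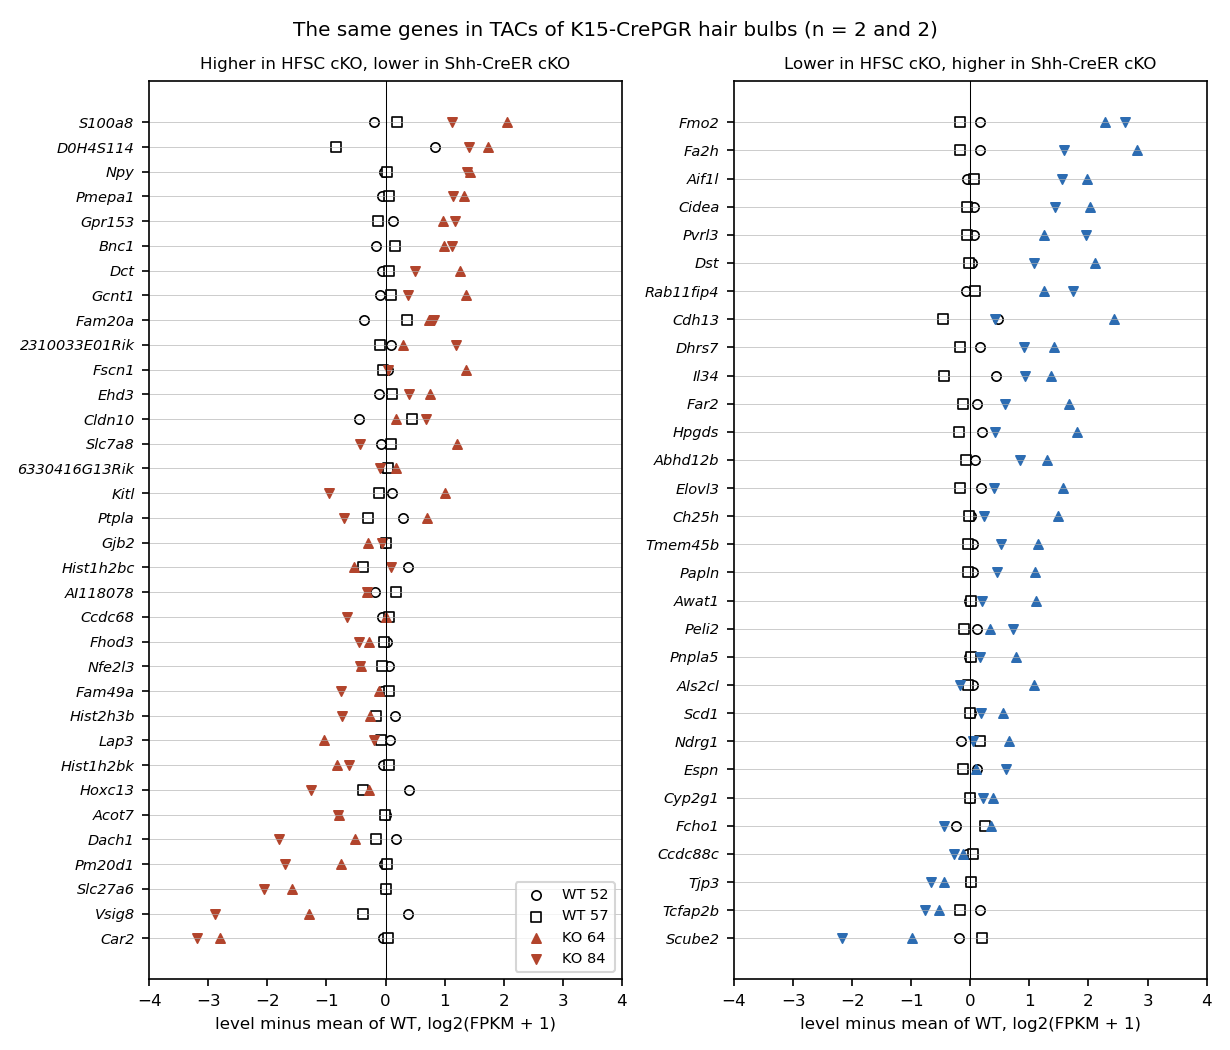
Level of each gene with its own locus in the 4 K15-CrePGR TAC libraries, as its difference from the WT mean (log2(FPKM + 1), x axis), open symbols for WT 52 and 57 and filled triangles for KO 64 and 84. On the right, both triangles lie above both open symbols for 21 of 30 genes; on the left they do for 12 of 34 and lie below for 14, from S100a8 (1.59) to Car2 (-2.99).

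Car2 had the lowest adjusted p of the first direction. It was at 26.1 and 27.9 FPKM in WT and at 3.03 and 2.06 FPKM in KO, a difference of -2.99 (SE 0.20, limma adjusted p = 0.0560). The WT and KO values were far apart, and each pair was close together. Slc27a6 was at 21.3 and 21.4 FPKM in WT and at 6.48 and 4.39 FPKM in KO (-1.82, SE 0.21, limma adjusted p = 0.0866). Vsig8 was at 19.2 and 10.9 FPKM in WT and at 5.36 and 1.10 FPKM in KO (-2.09, SE 0.62, limma adjusted p = 0.234). Hoxc13, by contrast, overlapped, at 144 and 83.6 FPKM in WT and 89.9 and 45.01 FPKM in KO. Acot7 was at 68.6 and 68.3 FPKM in WT and at 39.5 and 38.8 FPKM in KO (-0.79, SE 0.13, limma adjusted p = 0.126). Replicates of Acot7 differed by less than 1 FPKM within each genotype. Pm20d1, Dach1, Hist1h2bk, Nfe2l3 and Fhod3 were also lower in both KO libraries, with differences of -1.23, -1.16, -0.72, -0.43 and -0.36 and limma adjusted p from 0.227 to 0.310. Lap3, Fam49a, AI118078, Hist2h3b and Gjb2 had the same order, with differences from -0.62 (Lap3) to -0.18 (Gjb2).

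The 12 genes of the first direction whose KO values lay above WT went against the Shh-CreER TACs. Pmepa1 was at 6.87 and 7.52 FPKM in WT and at 19.5 and 17.0 FPKM in KO (1.23, SE 0.16, limma adjusted p = 0.0929). Gpr153 was at 7.57 and 6.12 FPKM in WT and at 14.4 and 16.7 FPKM in KO (1.08, SE 0.18, limma adjusted p = 0.123), and Bnc1 at 12.5 and 15.9 FPKM and at 29.1 and 32.0 FPKM (1.06, SE 0.18, limma adjusted p = 0.124). These 3 were higher in the KO pair by more than the spread within it. Npy was at 0.448 and 0.512 FPKM in WT and at 2.99 and 2.87 FPKM in KO (a difference of 1.41). Dct was at 14.7 and 16.1 FPKM in WT and at 38.2 and 22.3 FPKM in KO (0.88, SE 0.29, limma adjusted p = 0.255). The other 13 melanocyte genes summed to 39.6 and 59.9 FPKM in WT and to 135 and 58.8 FPKM in KO 64 and KO 84, so KO 64 was high in both Dct and the list. S100a8 was at 1.78 and 2.63 FPKM in WT and at 12.2 and 5.93 FPKM in KO, Fscn1 at 16.5 and 15.6 FPKM and at 42.6 and 16.6 FPKM, and Gcnt1 at 7.16 and 8.197 FPKM and at 21.2 and 10.3 FPKM, each higher in KO 64. D0H4S114, Fam20a, Ehd3 and 2310033E01Rik completed the 12.

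Fmo2 had the lowest adjusted p of the second direction. It was at 2.00 and 1.37 FPKM in WT and at 12.0 and 15.4 FPKM in KO, a difference of 2.45 (SE 0.23, limma adjusted p = 0.0866). Aif1l was at 0.987 and 1.16 FPKM in WT and at 7.15 and 5.05 FPKM in KO (1.76, SE 0.25, limma adjusted p = 0.111). Rab11fip4 was at 3.75 and 4.28 FPKM in WT and at 10.9 and 15.7 FPKM in KO (1.49, SE 0.23, limma adjusted p = 0.113). Pvrl3, which joins neighbouring cells, was at 3.92 and 3.54 FPKM in WT and at 10.2 and 17.4 FPKM in KO (1.61, SE 0.29, limma adjusted p = 0.135). For Fmo2, Rab11fip4 and Pvrl3 the library KO 84 was the higher one, against the order of most of the 30. Dst was at 2.84 and 2.70 FPKM in WT and at 15.2 and 6.97 FPKM in KO (1.59, SE 0.38, limma adjusted p = 0.187).

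Among sebaceous genes, Fa2h was at 0.513 and 0.198 FPKM in WT and at 8.52 and 3.04 FPKM in KO (a difference of 2.20). Cidea was at 0.260 and 0.161 FPKM in WT and at 3.91 and 2.28 FPKM in KO (a difference of 1.73). Far2 (1.67, 1.26, 6.80 and 2.67 FPKM), Elovl3 (1.56, 0.995, 5.71 and 1.99 FPKM) and Scd1 (67.3, 67.0, 99.5 and 76.2 FPKM, in the order WT 52, WT 57, KO 64, KO 84) had the same order of genotypes, as did Awat1, whose levels were 1.24 FPKM or less. The 6 with a locus of their own were all highest in KO 64. The 11 listed sebaceous genes that are not members summed to 777 and 840 FPKM in WT and to 454 and 416 FPKM in KO. Most of that sum was Mgst1, a glutathione transferase at 726 and 792 FPKM in WT and 311 and 296 FPKM in KO. The fall in the sum is thus that of Mgst1 and not of the other genes. Over the whole list, with members and the joined Scd3 locus, 14 genes averaged at least 1 FPKM. Of these, 7 were at least 2-fold higher in KO and 1 (Mgst1) lower. Fa2h, Cidea and Awat2 reached that mean only through KO values.

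In this direction 4 genes were lower in both KO libraries, against the Shh-CreER TACs. Scube2 was at 8.38 and 11.3 FPKM in WT and at 4.44 and 1.38 FPKM in KO (-1.58, SE 0.46, limma adjusted p = 0.227). Tcfap2b was at 29.8 and 23.5 FPKM in WT and at 17.9 and 15.1 FPKM in KO (-0.65, SE 0.19, limma adjusted p = 0.230). Tjp3 and Ccdc88c differed by -0.56 and -0.20. Ndrg1, Espn, Cdh13, Als2cl and Fcho1 overlapped between genotypes.

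Some members shared a locus with other genes in the K15-CrePGR table and stayed out of the counts: Pcp4, BC100530 and Ugt1a6a of the first direction, and Serpinb10-ps, Aadacl3, Rdh9, Scd3 and Fosl1 of the second. BC117090 was not matched there.

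Neighbouring members were few. On mm9 chromosome 4, Acot7 (151552242 to 151645964) and Gpr153 (151648340 to 151659446) lie 2.376 kb apart and share the first direction, and Espn (151494315 to 151526492), of the second direction, lies 25.75 kb on the other side of Acot7. In K15-CrePGR TACs, Acot7 was lower and Gpr153 higher in both KO libraries, while Espn overlapped, so these neighbours did not share an order there. On chromosome 19, the joined locus of Scd3 lies 87.586 kb from Scd1. No further pair lay within 100 kb among the members with coordinates, which leaves out BC117090.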

How the data were processed

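RNA of 8 libraries was compared within 3 tables. Per the submitters' processing notes, the authors used TopHat and Cufflinks with build mm9, in versions not given in the sources used here, and the deposited values are FPKM, 1 column per library per the file headers. Each table was normalized separately. Columns were matched to samples by name, and the highest-mean row of a symbol was kept. The members and the 20 gene lists were chosen with earlier results of these data known.

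Named with values were, in each direction, the 15 genes with the largest smaller-of-the-pair difference where both table means reached 5 FPKM, members on a gene list, and the 3 nearest genes on each side of the threshold. Others (such as Npy, Car2, Gjb2, Slc27a6, Cldn10, Fhod3, Nfe2l3, Ptpla, Ch25h, Cyp2g1, Fmo2, Pnpla5, Il34, Cdh13, Dst and Pvrl3, and non-members such as Kit, Mitf, Pparg, Dgat2 and Mgst1) were added after their values were seen.

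K15-CrePGR TACs were tested on log2(FPKM + 1) with limma 3.58.1 in R 4.3.3 (empirical Bayes with trend, two-sided, threshold 0.05), over named loci averaging at least 1 FPKM. P-values cover the spread between these samples only, which may be technical. Unnamed loci (8904) were left out. The procedure was tested on simulated data. After the values were seen, 4 choices were made: medians were taken over every member with its own locus in place of those that passed the filter, loci above 0 served as background for groups that do not overlap, joined loci were kept apart, and the printed promoters were picked. Depth in HFSCs and Shh-CreER TACs was estimated from the steps of values under 0.3 FPKM and transcript lengths over 1000 bp, and was not derived for K15-CrePGR TACs. Alternatives were other pseudocounts (0.1 and 5), filters and scalings, no trend in the fit, and the omission of single K15-CrePGR libraries. Python 3.11.15, numpy 2.4.6, pandas 2.3.3 and matplotlib 3.10.9 were used.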

Additional observations from a re-analysis of the deposited data

Results flagged for a closer look

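By construction, all 38 genes of the first direction and all 35 of the second had opposite differences in HFSCs and Shh-CreER TACs. Of these, 16 also had opposite differences in the Shh-CreER and the K15-CrePGR TACs, with every KO sample on the other side of every WT sample. They were 12 of 34 genes with their own locus in the first direction (35.3%, KO above) and 4 of 30 in the second (13.3%, KO below). Over all named loci above 0, KO lay above WT for 27.5% and below for 20.4%, so nothing is read from the count of 16. These differences between the TAC populations were not tested, and driver, age (day 68 and day 80) and control genotype (Het and WT) differ between them and cannot be told apart.

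In the first direction, where cKO Shh-CreER TACs were lower, the K15-CrePGR difference (KO minus WT, log2) was 1.592 for S100a8, 1.574 for D0H4S114, 1.408 for Npy, 1.231 for Pmepa1, 1.079 for Gpr153 and 1.061 for Bnc1. It was 0.8824 for Dct, 0.8705 for Gcnt1, 0.7796 for Fam20a, 0.7457 for 2310033E01Rik, 0.6991 for Fscn1 and 0.5752 for Ehd3. In the second direction, where cKO Shh-CreER TACs were higher, it was -1.581 for Scube2, -0.652 for Tcfap2b, -0.5594 for Tjp3 and -0.2012 for Ccdc88c.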

How the results depend on the processing

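The number of genes moving oppositely rested on the pseudocount and the filter on low values. With a pseudocount of 0.1 the directions held 50 and 68 genes, with 5 they held 10 and 10, and with a minimum mean of 5 FPKM they held 19 and 18. No filter gave 45 and 37, and summed rows 38 and 35. Median scaling gave 36 and 34 genes, of which 36 and 32 were among the 38 and 35, and quantile normalization gave 34 and 36, of which 33 and 30 were.

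In K15-CrePGR TACs, 1 gene of the first direction, Car2, passed as lower with a pseudocount of 0.1 (limma adjusted p = 0.0425), a minimum mean of 5 FPKM (0.0423) or quantile normalization (0.0330), and under no other alternative. The median of the second direction was 1.645 with a pseudocount of 0.1 and 0.323 with 5, 1.049 over genes averaging at least 1 FPKM, and between 0.4342 (without KO 64) and 1.199 (without KO 84) when a library was left out. The median of the first direction, near 0, changed sign without KO 84 (0.0925). Gjb2 reversed under quantile normalization (0.116). Of the other values of the 44 tested genes whose groups do not overlap, 466 kept direction and side of the threshold and 3, all of Car2, are those given above. The cause of these changes was not tested. Over all loci, 5 were called higher and 4 lower, against 13 and 8 with a pseudocount of 0.1, 3 and 3 with 5, 2 and 3 with no filter, 9 and 6 with a minimum mean of 5 FPKM, 3 and 4 without trend, 6 and 7 without KO 64, 18 and 5 without KO 84, and 0 and 0 without either WT sample. No paired analysis was possible because the groups share no replicate numbers. Leaving out a library leaves an arm with 1 sample, which is assumed to vary like the other group.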
